A study of Rattus norvegicus with 6 samples.

Results

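The genes described here are 9 non-collagen components of the extracellular matrix, the protein network around cells: the glycoproteins Fn1, Sparc, Fbln5, Lamc1 and Nid1 and the proteoglycans Bgn, Fmod, Vcan and Cspg4. They were chosen by symbol. Every probe set that mapped to exactly 1 gene and carried a symbol on this list was kept, which gave 18 of the 4818 probe sets tested, for 9 of the 2890 genes named. A probe set is the group of short probes on the array that together measure a transcript. Fn1 had 5 probe sets, Sparc had 4, Bgn and Fmod had 2 each, and the other 5 genes had 1 each.

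RNA came from cultured rat fibroblasts, 208F, an immortal line, and FE8, its HRAS-transformed counterpart. The design text asks which genes change when DNA is demethylated in either line. There was 1 array of untreated 208F, 1 array of untreated FE8, and 2 arrays each of 208F and FE8 given 0.3 µM 5-aza-2'-deoxycytidine (the drug, an inhibitor of DNA methyltransferases) for 96 h. The labels give no separate cultures for the duplicates, so p-values measure only the spread between these arrays, which may be technical, and transformation was represented by a single line. In such bulk samples, fewer cells of a type and less RNA per cell cannot be told apart.

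Matrix glycoproteins carry binding sites for integrins and for each other. Fibronectin forms fibrils on the cell surface that support adhesion, laminins and nidogen build the sheet of basement membranes, and fibulin-5 helps to organise elastic fibres. Proteoglycans are core proteins with long sugar chains, and the small leucine-rich ones, biglycan and fibromodulin, bind collagen fibrils. Loss of surface fibronectin is a long-known feature of fibroblasts transformed by oncogenes.

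Median signals of the 6 arrays lay between 354.0 and 422.0. No probe set of Hras was among those tested, so the labels could not be checked against the oncogene. Of 10 fibroblast markers, 8 were measured, with summed signals of 53178 to 91807 in 208F and 35817 to 56216 in FE8. Most of the gap between the untreated lines lay in the collagen genes Col1a1 (22282 in 208F, 131 in FE8), Col1a2 (13772 and 5073) and Col3a1 (3385 and 244). P4hb (8840 and 5871) and Vim (18849 and 16158) were also lower in untreated FE8. S100a4 (20185 and 23151), Thy1 (3635 and 4342) and Pdgfra (859 and 1246) were higher there. Vim, the intermediate filament of mesenchymal cells, lay between 7118 and 18849. Of 7 epithelial markers, 3 were measured (Krt8, Krt18 and Epcam), with sums of 168 and 145 in the untreated lines and 3039 to 4418 after the drug. Most of each sum was Krt8, and Krt18 and Epcam stood at 3 to 9 in the untreated lines. Of 5 skeletal muscle markers, 3 were measured, with sums of 386 and 35 in the untreated lines (208F, FE8), 2047 and 2587 in 208F after the drug and 412 and 598 in FE8 after it. The endothelial gene Kdr (2 to 84) and the leukocyte gene Cd14 (160 to 446) were the only measured markers of their lists. The arrays fell into 3 scan days, each with its own chip lot. Both untreated arrays shared the first, 208F aza replicate 1 was alone on the second, and the other 3 treated arrays shared the third. The effect of the drug and that of the scan day or lot cannot be told apart.

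The study concerns methylation, which in mammals falls on the C of the dinucleotide CpG, so the promoter windows of the members were counted for CpG. RefSeq windows of 300 bases (250 before to 50 after a transcription start, build GRCr8) were at hand for 7 of the 9 genes, with 2 windows for Vcan. Across 33469 windows of all genes the median was 7.0 CpG, with quartiles of 3.0 and 19.0. Among the members, Lamc1 had 28, Nid1 had 21, Cspg4 had 18, Fbln5 had 14, Vcan had 11 and 12, Fmod had 7 and Sparc had 3. For Nid1 and Fbln5, most of the 250 bases before the start lay inside the annotated bounds of the gene, as did some for Vcan. The ratio of observed to expected CpG was 0.739 for Lamc1, 0.569 for Fbln5 and 0.108 for Sparc, beside a median of 0.392 over all windows. Of these members, Sparc therefore lay under the median, Fmod at it and the others above it, as the histogram of CpG counts shows. Methylation itself was not analysed here.

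**Figure D1:**
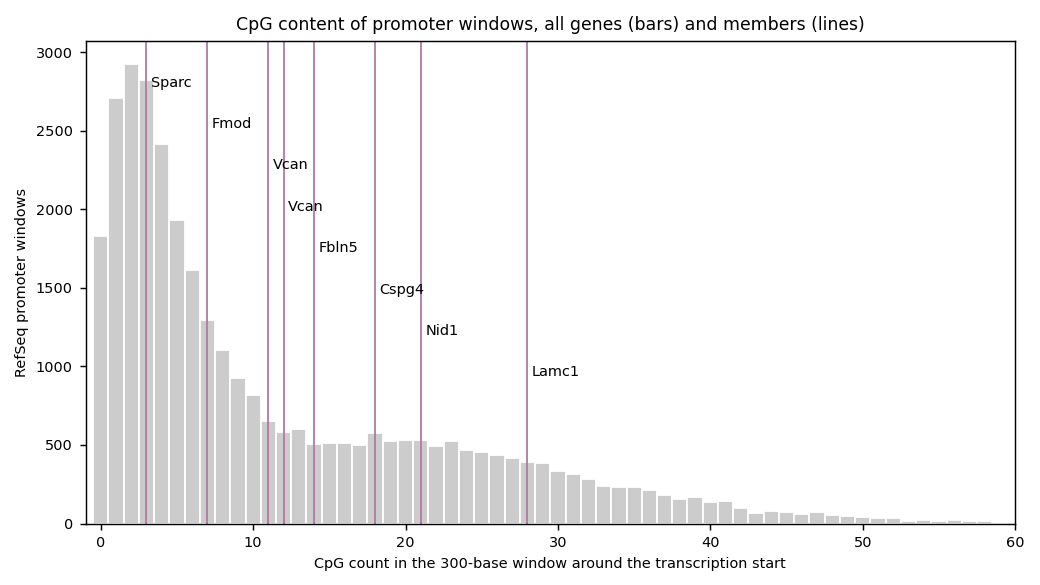
Number of RefSeq promoter windows (y axis) by CpG count in the 300-base window (x axis); grey bars are all 33469 windows and vertical lines are the 8 windows of 7 members. Sparc, at 3, lies on the CpG-poor side and Lamc1, at 28, on the CpG-rich side.

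Printed below is the stretch before the start for 3 members. Fbln5 was taken because its signals were lower in FE8, and Lamc1 because it had the most CpG of the members. Sparc was taken because all its probe sets but rc_AA892248_at were lower on every FE8 array than on every 208F array. Each stretch lies on the minus strand of GRCr8. It is given 5′ to 3′ in the direction of the gene, with every CpG in capitals. The stretch of Fbln5, chr6:126742848-126742956, holds 109 bases, since the rest of its window lies inside the annotated bounds of the gene. Those of Lamc1, chr13:68051987-68052236, and Sparc, chr10:40038817-40039066, hold 250 bases each. They contain 10, 19 and 2 CpG, in the order Fbln5, Lamc1, Sparc.
Fbln5: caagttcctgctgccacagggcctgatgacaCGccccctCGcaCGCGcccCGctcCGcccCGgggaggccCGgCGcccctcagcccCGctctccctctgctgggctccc
Lamc1: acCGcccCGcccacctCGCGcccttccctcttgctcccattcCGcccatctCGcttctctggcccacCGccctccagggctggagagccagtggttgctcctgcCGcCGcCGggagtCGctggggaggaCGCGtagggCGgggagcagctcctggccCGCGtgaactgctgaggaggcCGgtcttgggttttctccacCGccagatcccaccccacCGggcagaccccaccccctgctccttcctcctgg
Sparc: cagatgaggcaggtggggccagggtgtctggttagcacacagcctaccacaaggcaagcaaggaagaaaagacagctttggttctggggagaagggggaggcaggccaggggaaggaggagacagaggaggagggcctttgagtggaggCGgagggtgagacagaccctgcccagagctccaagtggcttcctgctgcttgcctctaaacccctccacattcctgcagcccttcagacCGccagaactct

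3 short motifs were searched on both strands of the 300-base windows. GGGCGG, the GC box, which itself holds a CpG, was present in the windows of 6 of the 7 members, all but Sparc, and in 33.1% of all windows. TGACTCA, the site of AP-1 factors, was in no member window and in 4.6% of all windows. TATAAA, the TATA box, was in no member window and in 14.2% of all windows. A match or its absence describes these letters only.

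The lines were first compared without the drug, FE8 (n = 1) against 208F (n = 1). All 18 member probe sets had a negative difference, and 10 of them, of 5 genes (Fn1, Fbln5, Sparc, Nid1 and Bgn), passed the test as lower in FE8, while none was higher. Over all probe sets tested, 47.9% had a negative difference, 2.82% were called lower and 3.09% higher. Differences are of log2(signal + 64), 64 being the 10th percentile of the signals tested, and errors are standard errors from a limma fit over all 6 arrays, with Benjamini-Hochberg adjustment over 4818 probe sets and a threshold of 0.05. The median of the member differences was -1.90, beside 0.02 for all probe sets. The list was drawn up with such results known, so its count is not independent evidence of a direction. Each untreated array is alone in its group, so its spread is taken from the treated pairs. RNA quality can be read from how 5' probes compare with 3' probes of a control gene. This ratio was 0.824 for beta-actin and 0.916 for GAPDH in untreated 208F, and 0.351 and 0.691 in untreated FE8. Its part in these differences was not tested.

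The comparison was repeated in treated cells, FE8 aza (n = 2) against 208F aza (n = 2) in the same fit, so both comparisons take their spread from the treated pairs. Here 8 of the 18 probe sets, of 3 genes (Fn1, Fbln5 and Sparc), were called lower in FE8 and none higher, against 3.65% lower and 3.42% higher over all probe sets. The median of the members was -1.26, beside -0.00 for all. Among the treated arrays the beta-actin ratios lay closer together, 0.529 and 0.456 in 208F and 0.405 and 0.384 in FE8, and those of GAPDH were 1.132 and 1.01 in 208F and 1.126 and 1.073 in FE8. Without 208F aza replicate 1, which leaves only treated arrays of the same chip lot, the differences were -3.58 for Fbln5, -2.05 for Fn1 X05834_at and -2.20 for Sparc Y13714_at. In that fit, without a 208F array, limma set the spread of each probe set by its signal level alone (an infinite prior). This lowers p-values at a given standard error.

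**Figure D2:**
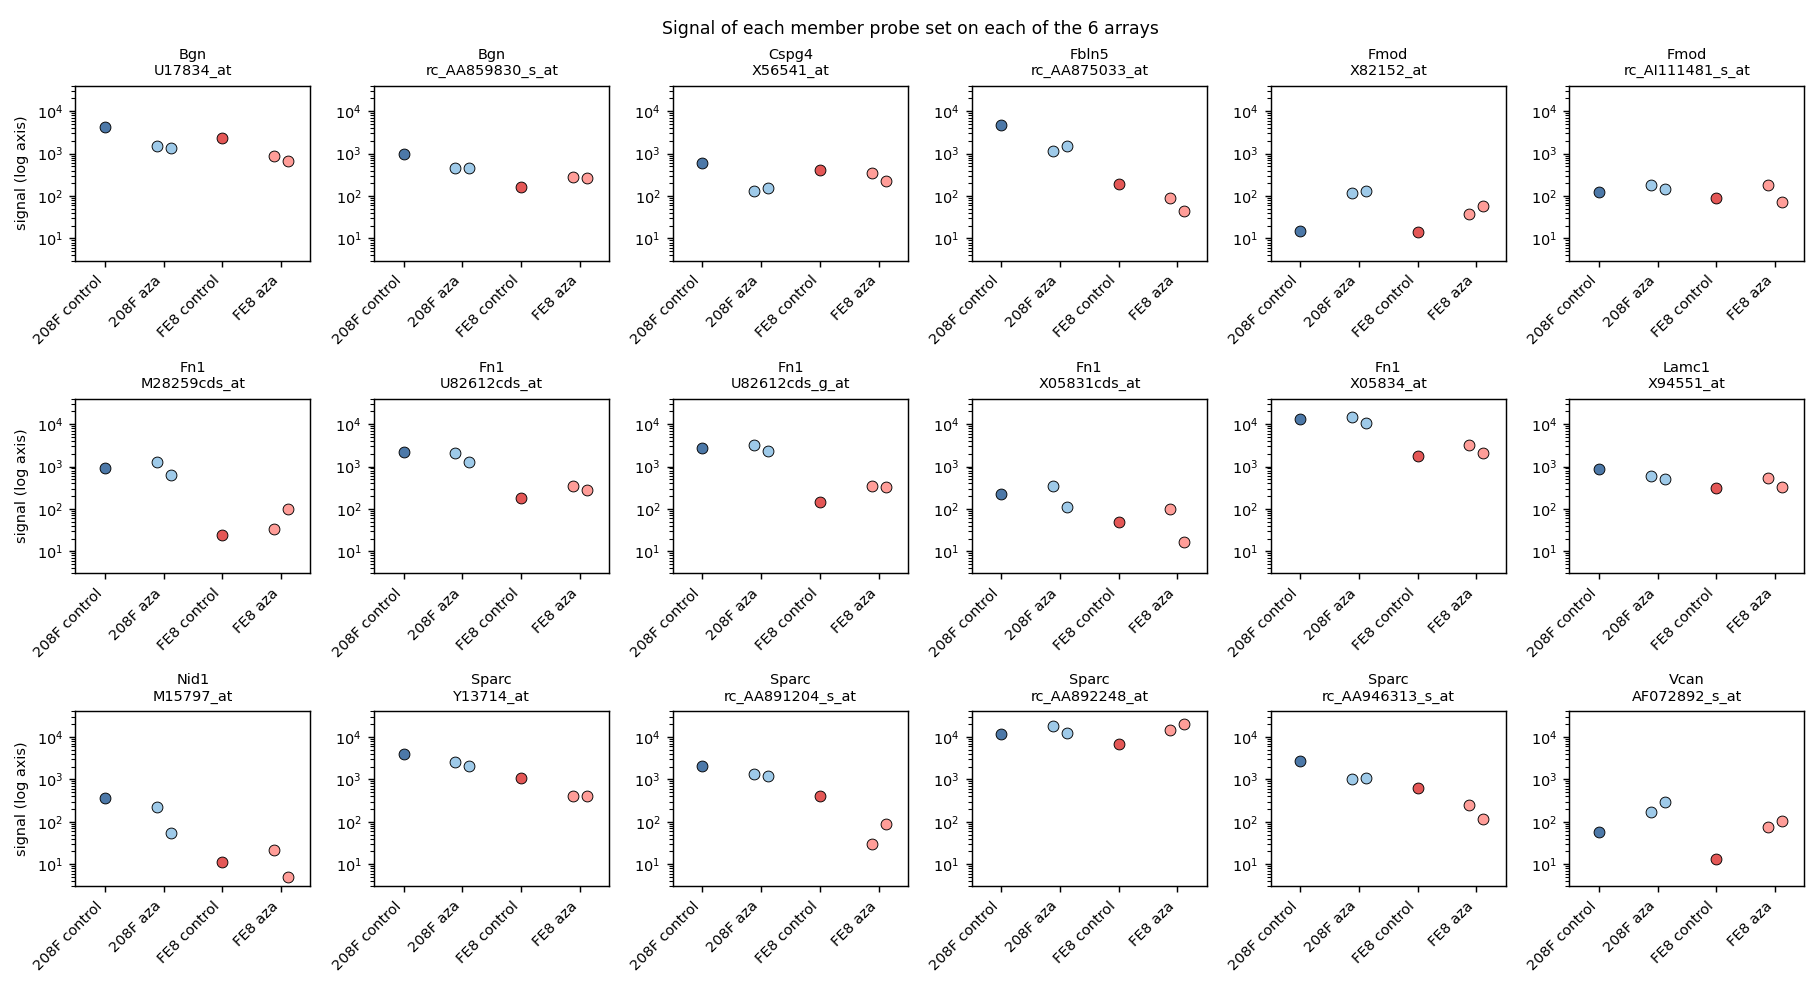
Signal (y axis, log axis, MAS5 units) of each of the 18 member probe sets on each of the 6 arrays, by group (x axis); each point is 1 array. All 5 Fn1 probe sets and Fbln5 are lower on every FE8 array than on every 208F array, while probe set rc_AA892248_at of Sparc is not.

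Fn1 encodes fibronectin, the adhesive glycoprotein of fibroblast matrix. By probe set X05834_at its signal was 13153 on the 208F control array, 15109 and 10812 on the treated 208F arrays, 1771 on the FE8 control array, and 3139 and 2100 on the treated FE8 arrays. Every 208F array was above every FE8 array, the treated 208F arrays lay on either side of their control, and both treated FE8 arrays lay above theirs. The log2 difference between the lines was -2.85 ± 0.38 without the drug (adjusted p = 9.9e-04, limma) and -2.29 ± 0.27 with it (adjusted p = 2.6e-04, limma).

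Both probe sets made from record U82612 gave the same picture and, sharing their source sequence, are not independent. U82612cds_g_at read 2690 on the 208F control array, 3229 and 2354 on the treated 208F arrays, 142 on the FE8 control array, and 349 and 332 on the treated FE8 arrays. Its difference between lines was -3.74 ± 0.35 without the drug, the largest of the 5 probe sets there, and -2.80 ± 0.25 with it. U82612cds_at differed by -3.24 ± 0.40 without the drug and -2.13 ± 0.28 with it. M28259cds_at read 923 on the 208F control array, 1298 and 627 on the treated 208F arrays, 24 on the FE8 control array, and 33 and 101 on the treated FE8 arrays. It differed by -3.49 ± 0.55 and -2.94 ± 0.39. Its untreated FE8 signal lay under the pseudocount, and the untreated difference was -4.55 with a pseudocount of 16 and -2.07 with 256, called in both fits.

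The 5th probe set of Fn1, X05831cds_at, had low signals and was called in neither comparison. It read 228 on the 208F control array, 355 and 112 on the treated 208F arrays, 50 on the FE8 control array, and 97 and 17 on the treated FE8 arrays. Its duplicates differed several-fold from each other, and the differences between lines were -1.36 ± 0.65 (adjusted p = 0.36, limma) and -1.25 ± 0.46 (adjusted p = 0.17, limma). The interval without the drug ran from -2.79 to 0.08. With the drug, the calls of X05834_at and U82612cds_at were lost without FE8 aza replicate 2 (adjusted p = 0.057 and 0.059, limma).

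Fbln5 encodes fibulin-5 and had the largest untreated difference among the members. Probe set rc_AA875033_at read 4620 on the 208F control array, 1170 and 1492 on the treated 208F arrays, 196 on the FE8 control array, and 91 and 45 on the treated FE8 arrays. The 4 groups stood in the order untreated 208F, treated 208F, untreated FE8, treated FE8 with no overlap, and each step exceeded 2 standard errors. The difference between lines was -4.17 ± 0.40 without the drug (adjusted p = 9.7e-05, limma) and -3.41 ± 0.28 with it (adjusted p = 2.4e-05, limma).

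Sparc encodes a collagen-binding matricellular glycoprotein, and its 4 probe sets disagreed. Y13714_at read 4050 on the 208F control array, 2617 and 2084 on the treated 208F arrays, 1103 on the FE8 control array, and 409 and 400 on the treated FE8 arrays. rc_AA891204_s_at read 2111 on the 208F control array, 1335 and 1186 on the treated 208F arrays, 397 on the FE8 control array, and 30 and 88 on the treated FE8 arrays. rc_AA946313_s_at read 2684 on the 208F control array, 1018 and 1066 on the treated 208F arrays, 630 on the FE8 control array, and 255 and 115 on the treated FE8 arrays. On these 3 probe sets the groups stood in the same order as for Fbln5, with no overlap.

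Without the drug the 3 differed between lines by -1.82 ± 0.32, -2.24 ± 0.42 and -1.99 ± 0.42, in the order just given, and all were called. With the drug they differed by -2.36 ± 0.23, -3.47 ± 0.30 and -2.21 ± 0.30, again all called. The untreated call of Y13714_at was lost without FE8 aza replicate 1 or 2 (adjusted p = 0.068 and 0.064, limma), where its value stayed at -1.82 and the spread came from the 208F pair and the variance prior.

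The 4th Sparc probe set, rc_AA892248_at, read 11833 on the 208F control array, 18044 and 12676 on the treated 208F arrays, 6913 on the FE8 control array, and 14909 and 20565 on the treated FE8 arrays. Untreated FE8 was the lowest array, and the treated arrays of both lines overlapped. The difference between lines was -0.77 ± 0.39 without the drug (interval -1.63 to 0.09) and 0.21 ± 0.28 with it, neither called. Over the 6 arrays its log2 values correlated with those of the other 3 at r = -0.228 to -0.389, while the 3 correlated with each other at 0.930 to 0.988, a description over arrays that share 2 lines and 3 scan days. 2 of the 3 agreeing probe sets carry the suffix _s, which marks probes that may match more than 1 transcript. Where each probe set lies in the Sparc transcript was not analysed here.

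**Figure D3:**
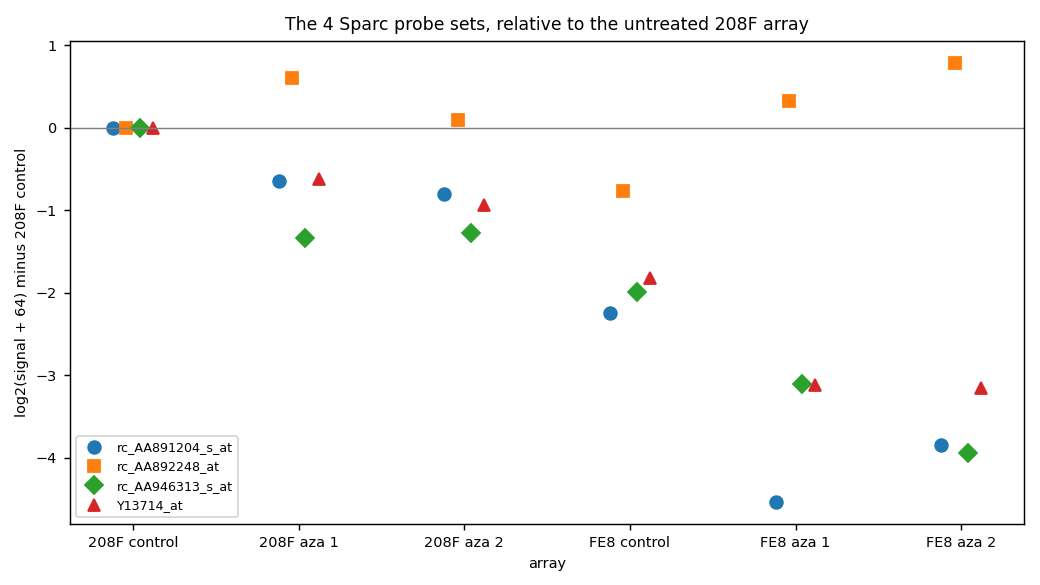
Log2(signal + 64) of the 4 Sparc probe sets on each array (x axis) minus the value of the untreated 208F array (y axis, log2 units); each marker is 1 probe set on 1 array. On the treated FE8 arrays 3 probe sets lie between -4.53 and -3.11, while rc_AA892248_at lies at 0.33 and 0.79.

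Lamc1 and Nid1 encode laminin gamma-1, a chain of most laminin trimers, and nidogen-1, the protein that links laminin to type IV collagen. Nid1 (M15797_at) read 360 on the 208F control array, 229 and 55 on the treated 208F arrays, 11 on the FE8 control array, and 22 and 5 on the treated FE8 arrays. All 3 FE8 arrays and the lower treated 208F array were below the pseudocount of 64. The untreated difference was -2.50 ± 0.60 (adjusted p = 0.032, limma), and its size followed the pseudocount, with -3.80 at 16 and -1.21 at 256, called in both fits. The call was lost under quantile normalization (adjusted p = 0.067, limma) and without either treated FE8 array (adjusted p = 0.13 in both fits, limma). With the drug the difference was -1.28 ± 0.42 and did not pass. It was -0.63 without 208F aza replicate 1 and -1.93 without 208F aza replicate 2, in fits with the spread set by signal level alone.

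Lamc1 (X94551_at) read 897 on the 208F control array, 611 and 514 on the treated 208F arrays, 312 on the FE8 control array, and 537 and 332 on the treated FE8 arrays. The treated arrays of the lines overlapped. The difference was -1.35 ± 0.41 without the drug (adjusted p = 0.091, limma) and -0.36 ± 0.29 with it (interval -0.99 to 0.28), so neither passed. Without 208F aza replicate 1 or 2 the adjusted p was 0.012 (limma) at the same difference and standard error, with an infinite prior in place of 9.02 prior degrees of freedom.

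Bgn encodes biglycan, and its 2 probe sets differed in what they showed. rc_AA859830_s_at read 958 on the 208F control array, 448 and 459 on the treated 208F arrays, 167 on the FE8 control array, and 280 and 264 on the treated FE8 arrays. Its difference between lines was -2.15 ± 0.38 without the drug (adjusted p = 0.0065, limma) and -0.62 ± 0.27 with it, not called. U17834_at read 4250 on the 208F control array, 1475 and 1394 on the treated 208F arrays, 2309 on the FE8 control array, and 898 and 654 on the treated FE8 arrays. It differed by -0.86 ± 0.33 without the drug (adjusted p = 0.2, limma) and -0.85 ± 0.23 with it (adjusted p = 0.052, limma). On both probe sets the untreated 208F array was the highest, but untreated FE8 was the lowest group on rc_AA859830_s_at and the second highest on U17834_at. Of the Bgn probe sets, rc_AA859830_s_at carries the suffix _s, as do Fmod rc_AI111481_s_at and Vcan AF072892_s_at, so its probes may match more than 1 transcript.

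Fmod encodes fibromodulin, which regulates the thickness of collagen fibrils. Its probe set X82152_at read 15 and 14 in untreated 208F and FE8, 115 and 129 in treated 208F, and 38 and 57 in treated FE8. rc_AI111481_s_at read 126 on the 208F control array, 185 and 148 on the treated 208F arrays, 91 on the FE8 control array, and 185 and 72 on the treated FE8 arrays. The differences between lines lay between -0.74 and -0.02 over both probe sets and both comparisons, and none passed.

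Vcan and Cspg4 encode chondroitin sulfate proteoglycans, versican of the loose matrix and the membrane-spanning NG2. Vcan (AF072892_s_at) read 58 on the 208F control array, 166 and 298 on the treated 208F arrays, 13 on the FE8 control array, and 74 and 103 on the treated FE8 arrays. Its line differences were -0.66 ± 0.49 and -0.93 ± 0.35, neither called. Cspg4 (X56541_at) read 589 on the 208F control array, 131 and 157 on the treated 208F arrays, 412 on the FE8 control array, and 348 and 222 on the treated FE8 arrays. It was the member with the most positive difference under the drug, 0.73 ± 0.31 (adjusted p = 0.25, limma), after -0.46 ± 0.44 without it. Of the 108 member signals, 16 were at or under 64, which is 14.8% beside 10.1% of all tested signals.

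**Figure D4:**
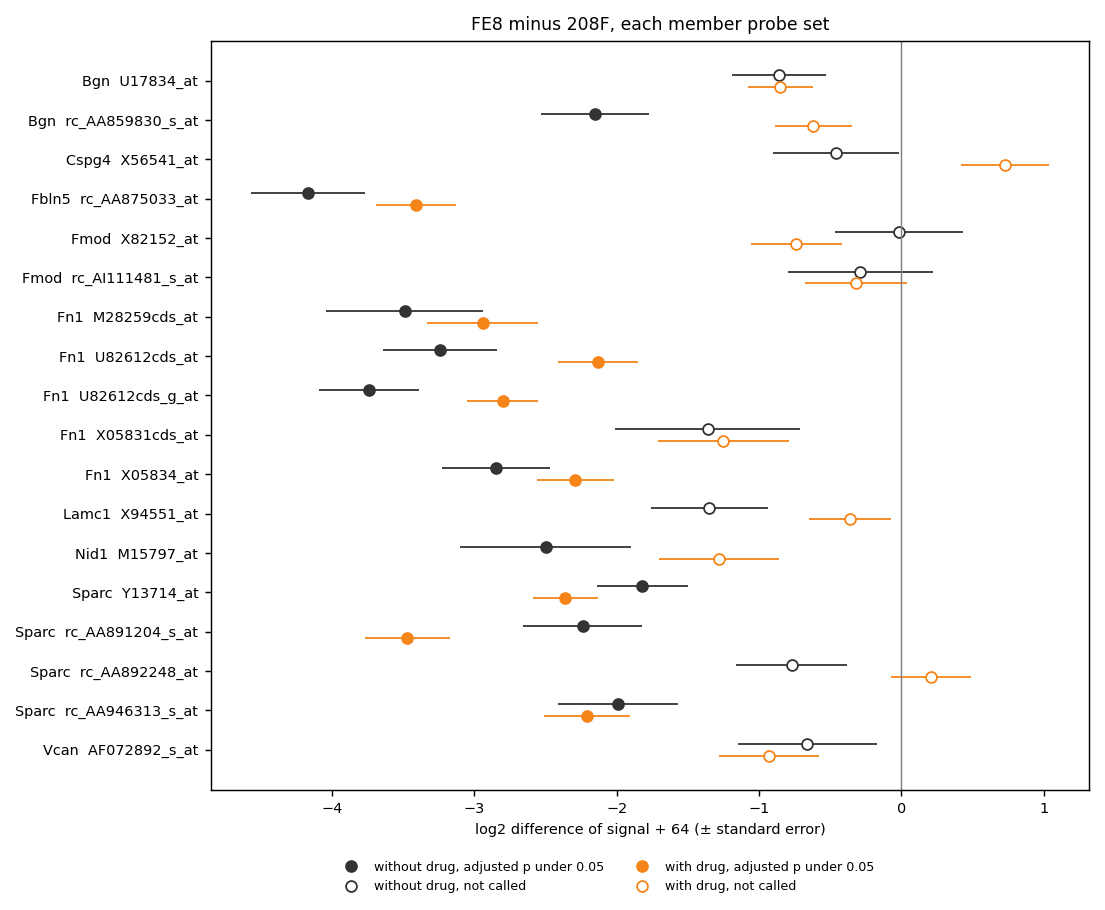
Log2 difference FE8 minus 208F (x axis, of signal + 64) for each member probe set (y axis), without the drug (dark) and with it (orange); bars are standard errors from limma and filled points passed the adjusted threshold. Fbln5, 4 of 5 Fn1 and 3 of 4 Sparc probe sets are filled in both comparisons.

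The drug effect was asked for within each line. In 208F (2 treated arrays, 1 control), 3 member probe sets fell, those of Fbln5, Cspg4 and 1 of Bgn, and none rose, against 1.6% lower and 3.59% higher over all probe sets. Fbln5 was at -1.76 ± 0.35 (adjusted p = 0.013, limma), Cspg4 at -1.65 ± 0.38 (adjusted p = 0.029, limma) and Bgn U17834_at at -1.53 ± 0.29 (adjusted p = 0.01, limma). For each of the 3, both treated arrays were below the untreated array. The median of the members was -0.54, beside 0.11 for all probe sets.

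The 5 Fn1 probe sets lay between -0.46 and 0.04 in 208F and none was called. Sparc stood at -1.31 ± 0.37 by rc_AA946313_s_at (adjusted p = 0.069, limma), -0.78 ± 0.28 by Y13714_at, -0.72 ± 0.36 by rc_AA891204_s_at and 0.35 ± 0.34 by rc_AA892248_at, none of which passed. The rc_AA946313_s_at difference passed with median scaling (adjusted p = 0.04, limma) and with a pseudocount of 256 (adjusted p = 0.032, limma). Vcan at 1.24 ± 0.42 and Fmod X82152_at at 1.23 ± 0.39 had the largest positive values, from signals of 58 and 15, and did not pass (adjusted p = 0.14 and 0.11, limma). None of the 3 calls in 208F was kept without FE8 aza replicate 1 or without FE8 aza replicate 2 (0 calls in each), although the differences were the same to 2 decimals and the standard errors were 0.30 to 0.35 (adjusted p = 0.061 to 0.086, limma). The count was 7 without 208F aza replicate 1 and 4 without 208F aza replicate 2.

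In FE8 (2 treated arrays, 1 control), 4 member probe sets fell and 1 rose, against 3.09% lower and 5.06% higher over all. The 3 agreeing Sparc probe sets fell, rc_AA891204_s_at at -1.95 ± 0.36 (adjusted p = 0.0075, limma), rc_AA946313_s_at at -1.54 ± 0.37 (adjusted p = 0.027, limma) and Y13714_at at -1.32 ± 0.28 (adjusted p = 0.015, limma). The 4th, rc_AA892248_at, rose by 1.33 ± 0.34 (adjusted p = 0.036, limma), so the calls for Sparc in FE8 point in opposite directions. Bgn U17834_at fell as in 208F, at -1.51 ± 0.29 (adjusted p = 0.0078, limma).

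For the other Bgn probe set the FE8 value was 0.54 ± 0.33, and for Fbln5 both treated arrays (91 and 45) lay below the control (196) without passing (adjusted p = 0.11, limma). The Fn1 values lay between 0.00 and 0.97, the highest being that of U82612cds_g_at (0.97 ± 0.30, adjusted p = 0.077, limma), which passed with a pseudocount of 16 (adjusted p = 0.047, limma). Treated FE8 signals of Fn1 stayed below those of 208F on all 5 probe sets. The median of the members was 0.31, beside 0.08 for all probe sets. With median scaling the rise of rc_AA892248_at did not pass (adjusted p = 0.13, limma), which left 4 lower and 0 higher. The 5 calls became 3 without the intensity trend, 0 without FE8 aza replicate 1, 1 without FE8 aza replicate 2, and 7 without either 208F aza replicate.

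Marker sums and the 5' to 3' ratios also differed between treated and untreated arrays, the ratios not all in the same direction. The fibroblast sum was lower after it, 91807 against 68217 and 53178 in 208F and 56216 against 35817 and 37175 in FE8. The epithelial sum was higher, 168 against 3458 and 3039 in 208F and 145 against 4345 and 4418 in FE8, and the muscle sum was higher in both lines too. The 5' to 3' ratio of beta-actin was 0.824 before and 0.529 and 0.456 after the drug in 208F, and 0.351 before and 0.405 and 0.384 after it in FE8. That of GAPDH was 0.916 before and 1.132 and 1.01 after in 208F, and 0.691 before and 1.126 and 1.073 after in FE8. The part of these shifts in the member values was not tested.

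**Figure D5:**
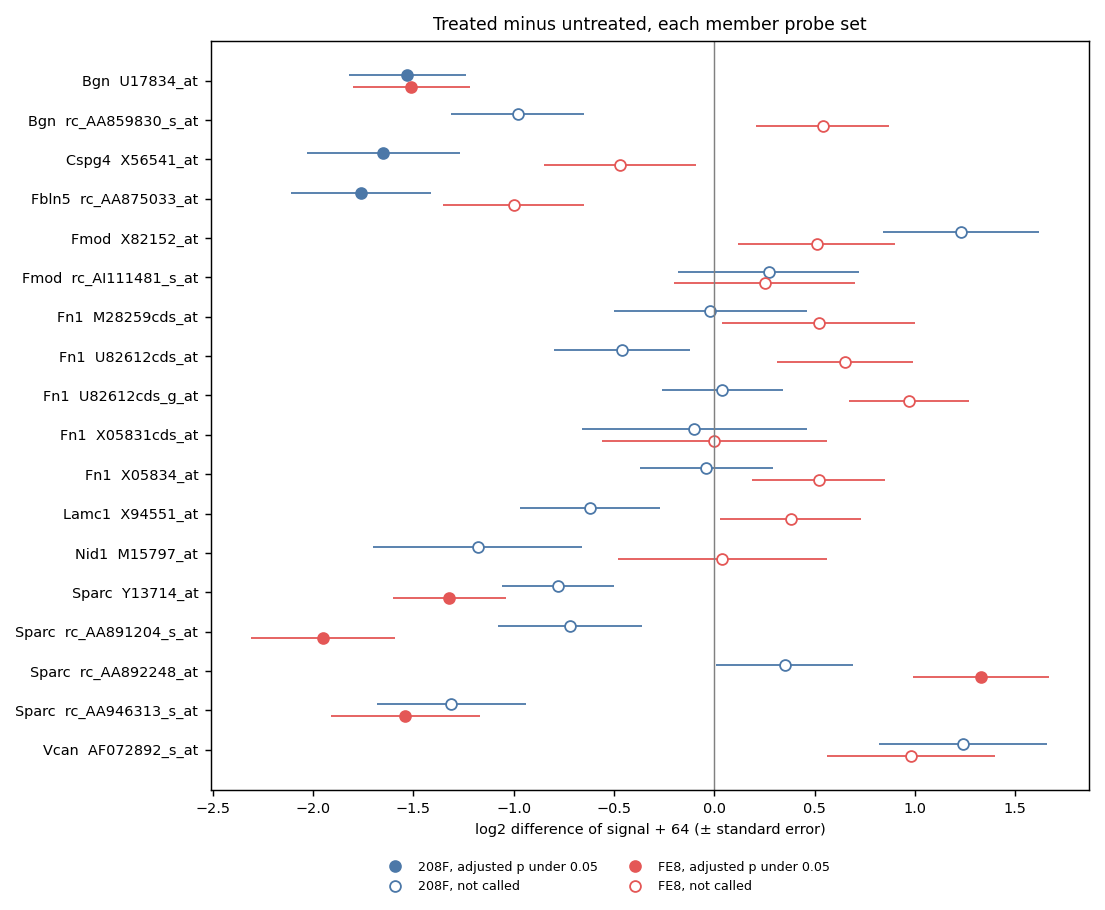
Log2 difference treated minus untreated (x axis, of signal + 64) for each member probe set (y axis), in 208F (blue) and FE8 (red); bars are standard errors from limma and filled points passed the adjusted threshold. Bgn U17834_at is filled in both lines, at -1.53 and -1.51.

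Whether the drug effect differed between the lines was tested as an interaction, the FE8 effect minus the 208F effect. By limma none of the 18 member probe sets passed, against 0.0208% higher and 0.0415% lower over all, and 4 had an unadjusted p under 0.05. The largest value was 1.52 ± 0.47 for Bgn rc_AA859830_s_at (interval 0.49 to 2.55, adjusted p = 0.28, limma). Sparc rc_AA891204_s_at stood at -1.23 ± 0.52 and Cspg4 at 1.18 ± 0.53. For Bgn U17834_at the value was 0.01 ± 0.40, with an interval from -0.88 to 0.90. Sparc rc_AA892248_at stood at 0.98 ± 0.48, and at 1.23 without 208F aza replicate 1, where the spread was again set by signal level alone.

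The wider set of matrix glycoproteins and proteoglycans held 64 further genes, of which 16 were measured, each by its brightest probe set. Without the drug 4 of these were lower in FE8, 2 were higher and 10 did not pass, with a median of -0.32. Over all probe sets 2.82% were lower and 3.09% higher, with a median of 0.02. The lower ones were Ltbp2, which binds fibrillin microfibrils (-2.97 ± 0.44), Aspn, a small leucine-rich proteoglycan (-2.68 ± 0.50), and the cell-surface syndecans Sdc4 (-1.45 ± 0.37) and Sdc1 (-1.36 ± 0.33). The higher ones were osteopontin, Spp1 (2.65 ± 0.40), and the laminin chain Lama3 (2.51 ± 0.43). Lama3 read 49 in untreated 208F and 581 in untreated FE8. This 208F signal of Lama3 and the untreated FE8 signals of Ltbp2 (16) and Aspn (4) lay under the pseudocount of 64. The sizes of these differences therefore depend on the pseudocount.

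With the drug 3 of the 16 were lower in FE8 and 3 higher, with a median of -0.01, beside 3.65% lower, 3.42% higher and a median of -0.00 over all probe sets. Thbs4 (-1.84 ± 0.33), Ltbp2 (-1.47 ± 0.31) and the glypican Gpc1 (-1.15 ± 0.26) were lower, and Spp1 (2.04 ± 0.28), Lama3 (1.53 ± 0.30) and reelin, Reln (1.50 ± 0.33), were higher. In the FE8 drug effect 4 rose and none fell (5.06% and 3.09% over all probe sets), with a median of 0.41 beside 0.08 for all. They were Ltbp2 (1.76 ± 0.38), Sdc1 (1.68 ± 0.28), Sdc4 (1.67 ± 0.32) and Reln (1.50 ± 0.40). Sdc1 read 1132 in untreated FE8 and 3241 and 4390 after the drug, beside 3008 in untreated 208F. In the 208F drug effect Thbs4 rose (2.07 ± 0.40) and Aspn fell (-1.73 ± 0.44), 1 gene each way beside 3.59% and 1.6% over all, with a median of 0.18 beside 0.11. Thbs4 read 10 in untreated 208F and 15 and 31 in treated FE8, all under the pseudocount, so the sizes of its differences depend on it too. None of the 16 passed the interaction test.

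Of 14 matrix receptors, 8 were measured. Without the drug 1 was called higher in FE8 and 0 lower (3.09% and 2.82% over all probe sets). With it 2 were higher and 1 lower (3.42% and 3.65% over all). The 208F drug effect had 1 higher and 0 lower (3.59% and 1.6% over all), and the FE8 drug effect had 0 either way (5.06% and 3.09% over all). The receptor medians in that order were -0.21, -0.09, 0.20 and 0.23. Itgb4, the integrin chain that binds laminin in hemidesmosomes, was higher in FE8 without the drug (3.04 ± 0.44) and with it (1.17 ± 0.31), and rose in 208F (1.81 ± 0.38). It read 24 in untreated 208F, under the pseudocount, so the sizes of its untreated line difference and of its rise depend on the pseudocount. Under the drug Cd44, a hyaluronan receptor, was higher in FE8 (1.66 ± 0.24) and the laminin-binding chain Itga7 was lower (-1.79 ± 0.25). Itgb1, the beta chain of the main fibronectin receptor, differed by -0.15 ± 0.31 without the drug. Of 14 glycosaminoglycan synthesis genes only Ugdh was measured, at 0.16 ± 0.33 in the untreated comparison.

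The genes with the most similar profile over the 6 arrays were sought among 406 probe sets of other genes that spanned at least 2 log2 units. For Fn1 (X05834_at) they were Dglucy (r = 0.994), the sodium pump subunit Atp1b1 (0.991), the collagen chain Col1a1 (0.989) and the calcium sensor Vsnl1 (0.987). The Col1a1 probe set here, M27207mRNA_s_at, read 10934 in untreated 208F and 12811 and 13955 in treated 208F. The Col1a1 probe set among the fibroblast markers, rc_AI231472_s_at, read 22282 in untreated 208F and 10923 and 6922 in treated 208F, so the probe sets disagreed there. For Bgn (U17834_at) they were the centriole kinase Plk4 (0.982), the mitochondrial dehydrogenase Idh2 (0.969), the collagen chain Col5a1 (0.964) and Pcolce, the procollagen C-proteinase enhancer (0.949). These correlations describe 6 arrays that share 2 lines and 3 scan days, and they carry no test.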

How the data were processed

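Total RNA was hybridised to an Affymetrix rat genome array (chip A). The values deposited by the authors are intensity, 1 signal for each probe set, made with MAS5 per the submitters' processing notes, with version and settings not given in the sources used here. Values are whole numbers on a linear scale, and array means were alike (1258.0 to 1389.5), so they were used as scaled. How the authors chose the probe sets of the table is not stated. After 29 control probe sets were removed, 4818 were tested, 3956 with 1 gene, 207 with several and 655 with none, named from the platform annotation and updated through RefSeq (GRCr8).

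Log2(value + 64) was fitted with limma 3.58.1 (R 4.3.3) as 4 group means, with an intensity trend (2 residual and 9.02 prior degrees of freedom), 2-sided moderated tests and Benjamini-Hochberg adjustment. Intervals are 95%. Detection calls were not used here. Every probe set of the 9 members is named. From the wider lists, up to 4 called genes per direction and comparison are named. Members and lists were chosen with earlier results of these data known. The fit was tried on simulated data with known line differences and the same spread at every signal level. Such data could not test the intensity trend. Alternatives were other pseudocounts (16 and 256), quantile and median scaling, a mean signal of at least 200, no trend, each treated array left out, and a replicate block. The number of arrays limits the precision.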

Additional observations from a re-analysis of the deposited data

How the results depend on the processing

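Values of single probe sets are log2 differences. Counts of called member probe sets stayed within 1.5 times for both line comparisons under every alternative run (8 to 13 without and 6 to 11 with the drug when 1 treated array was left out). The drug counts did not: 0 to 7 for 208F (3 with all arrays) and 0 to 7 for FE8 (5 with all arrays) when 1 treated array was left out, and 3 in FE8 without the intensity trend. Part of this follows from the variance prior, which had 9.02 degrees of freedom with all arrays, 5.58 and 5.62 without an FE8 aza array and was infinite without a 208F aza array, so gains in the latter fits are no sign of a stronger result. The interaction count was 0 to 1 when 1 array was left out. Median scaling moved the median of all probe sets from 0.11 to -0.03 in 208F and from 0.08 to -0.04 in FE8, so drug effects hold relative to that shift. Pseudocounts moved the size of called differences by over 1.5 times for Nid1 without the drug (-3.80 at 16, -1.21 at 256) and, at 256, for Fn1 M28259cds_at without (-2.07) and with the drug (-1.87), Sparc rc_AA891204_s_at with the drug (-2.27) and in FE8 (-1.06), Sparc rc_AA946313_s_at in FE8 (-1.02) and Cspg4 in 208F (-1.08), all still called. Signs turned only for differences that passed no test. Under quantile normalization these were Fmod X82152_at without the drug (0.04), Fmod rc_AI111481_s_at in 208F (-0.03) and FE8 (-0.05), and Fn1 X05834_at in 208F (0.17), with X05831cds_at (-0.31) and Nid1 (-0.19) in FE8, and Bgn U17834_at (-0.03) and X05831cds_at (-0.01) in the interaction. Under median scaling they were Fn1 U82612cds_g_at in 208F (-0.11), and X05831cds_at (-0.12) and Nid1 (-0.09) in FE8. With a pseudocount of 16 they were X05831cds_at in FE8 (-0.11), and Bgn U17834_at (-0.01) and Vcan (0.14) in the interaction, and with 256 Sparc rc_AA946313_s_at in the interaction (0.15). Leaving out 1 treated array also turned the sign of uncalled values. With the drug between lines these were Fmod rc_AI111481_s_at (-0.76 to 0.12) and Sparc rc_AA892248_at (-0.04 to 0.46). In 208F they were Fn1 M28259cds_at (-0.51 to 0.46), U82612cds_g_at (-0.19 to 0.26), X05831cds_at (-0.73 to 0.52) and X05834_at (-0.28 to 0.20). In FE8 they were Fmod rc_AI111481_s_at (-0.19 to 0.68), X05831cds_at (-0.49 to 0.50) and Nid1 (-0.12 to 0.20). In the interaction they were Bgn U17834_at (-0.20 to 0.22), Fmod rc_AI111481_s_at (-0.46 to 0.41), X05831cds_at (-0.52 to 0.73), Sparc rc_AA946313_s_at (-0.64 to 0.19) and Vcan (-0.59 to 0.06). The cause was not tested. With the replicate number as a block (treated arrays only), 9 member probe sets passed in place of 8, the added one being Fn1 X05831cds_at. The labels do not say that numbers pair the arrays, and replicate differences correlated between the lines at 0.319 over 4818 probe sets.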
